A study of Homo sapiens with 4 samples.

Results

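The peaks described here are those of the capture lists that lie on the 16 autosomes without large arrays of human satellite 2 (HSat2): the acrocentric chromosomes 13, 14, 15 and 21, and the other chromosomes 3, 4, 5, 6, 8, 9, 11, 12, 17, 18, 19 and 20. Rows overlapping the ribosomal DNA (rDNA) of chromosome 21 between positions 8175000 and 8480000, and rows of chromosome 4 that start at or above 189800000, were left out by position. This left 185 of the 801 peaks deposited, 101 of the 406 of replicate A and 84 of the 395 of replicate B. Of these, 11 in A and 12 in B were on acrocentric chromosomes, and 90 and 72 were on the other chromosomes. The rule used position alone, with no limit on score, width or agreement. It was set with earlier results of these data known.

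The DNA came from A549, an established line of human lung adenocarcinoma. Cells took up SVS-1, a cell-penetrating peptide carrying an N-terminal biotin, for 1 h at 15 µM and 37 °C in serum-free medium, then were trypsinised, replated overnight and fixed for 15 min in 1% paraformaldehyde. In Chem-seq, the biotin is used to pull down the compound with the chromatin fixed to it, and the DNA is sequenced. The 2 capture libraries (A and B, biological replicates in the series' design text) have 2 input libraries made from lysate of peptide-treated cells. The inputs were not analysed here, and the design holds no group without peptide. Read depth is not given in the lists. Intervals below are exact binomial (Clopper-Pearson, 95%) over peaks and cover counting error only, and neighbouring peaks are not independent. No test was made over peaks, because each replicate is 1 list and its peaks are not replicates.

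Pericentromeric DNA flanks the centromere and is built largely of satellite repeats and recently duplicated segments. The short arms of acrocentric chromosomes carry the rDNA arrays together with satellites, and much of this sequence is absent from, or collapsed in, the hg38 assembly. A read from a repeat can align to several places, so a peak in such a region may hold reads from copies elsewhere. How such reads were treated is not given in the sources used here.

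For 1 of the acrocentric peaks the annotation gives the sequence inside. The RefSeq genes MIR3648-2 (chr21:8986999-8987178) and MIR10396A (chr21:8987617-8987665) lie in the peak of replicate B at chr21:8986601-8988300 (hg38), and the peak of replicate A at chr21:8986801-8987600 holds MIR3648-2. The hairpin of MIR10396A and that of its relative MIR10396B, which lies in the excluded rDNA, are shown because they are nearly the same sequence. Capitals mark the longest run both hairpins share, and sequences are those annotated for each gene, on the plus strand.

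MIR10396A hairpin, chr21:8987617-8987665: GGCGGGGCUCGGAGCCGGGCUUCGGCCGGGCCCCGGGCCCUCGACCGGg

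MIR10396B hairpin, chr21:8436324-8436374: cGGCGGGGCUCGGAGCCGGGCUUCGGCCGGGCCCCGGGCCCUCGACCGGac

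The shared run was 48 bases long, of 49 bases in MIR10396A and 51 in MIR10396B, and G and C made up 87.8% and 86.3% of the hairpins. MIR10396B starts 3102 bp after the start of the gene RNA45SN1, in the transcribed spacer before the 18S gene. MIR3648-1 starts 2485 bp after the start of RNA45SN2, so these genes stand 617 bp apart in the coordinates of the 45S unit. MIR10396A starts 618 bp after MIR3648-2. The mature product listed for MIR3648-2, with its seed (bases 2 to 8) in capitals, is wholly inside the peaks of both replicates.

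hsa-miR-3648, chr21:8987026-8987046: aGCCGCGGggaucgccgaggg

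The place outside the rDNA limits thus holds annotated pieces with close relatives inside them. Its score was 20.48 in A and 35.77 in B. Whether its reads came from the rDNA was not tested. The 3 pseudogenes of 18S RNA annotated on the chromosomes studied here had no peak close by. LOC110467535 and LOC110467538 on chromosome 20 were 563.6 and 800.1 kb from the nearest peak, and LOC110467536 on chromosome 14 was 18490 kb away.

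Peaks were concentrated on few chromosomes. Chromosome 4 held 30 peaks in A and 35 in B, chromosome 17 held 18 and 10, chromosome 20 held 12 and 12, and chromosome 21 held 8 and 8. Per 100 Mb of chromosome length, acrocentric chromosomes had 2.97 peaks in A and 3.24 in B, against 5.70 and 4.56 on the others. Within both classes the spread was wide. On the others it ran from 0.504 (chromosome 3) to 21.6 (chromosome 17) in A. In B it ran there from 0 (chromosomes 6, 11 and 19) to 18.6 (chromosome 20). Chromosome 21 had 17.1 peaks per 100 Mb in each replicate, chromosome 13 had 1.75 in A and 2.62 in B, chromosome 14 had only a peak of B scoring 4.04, and chromosome 15 only a peak of A scoring 4.29. Chromosomes 3, 6, 8, 9, 11, 12, 14, 15 and 19 held no peak common to both lists. The lengths include assembly gaps, and no allowance was made for the copy number of A549.

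**Figure D1:**
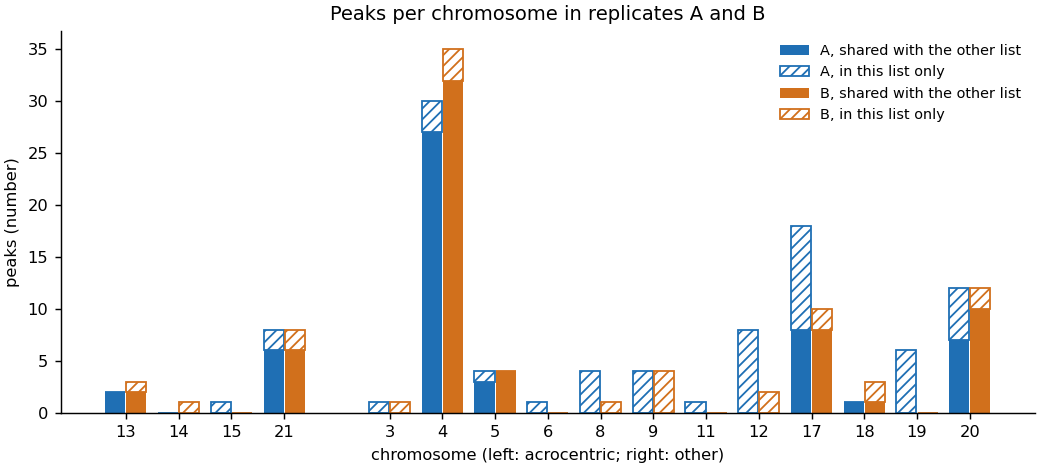
Number of peaks (vertical axis) per chromosome (horizontal axis, acrocentric chromosomes at the left) in replicates A and B; filled parts of a bar overlap a peak of the other list by at least 1 bp, and hatched parts do not. Chromosome 4 stands highest with 30 and 35 peaks, and the 8 peaks of A on chromosome 12 and its 6 on chromosome 19 are all hatched.

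Peaks joined over gaps of up to 50 kb formed 60 places, of which 17 had peaks of both replicates, 32 of A only and 11 of B only. These 17 places took in 64 of A's 101 peaks and 73 of B's 84. At 2 of them, chr4:189233701-189235400 and chr8:8019801-8022300, the peaks of A and B did not overlap. On acrocentric chromosomes 5 of 8 places had peaks of both replicates, and on the other chromosomes 12 of 52. Places with both spanned 0.7 to 13.4 kb on acrocentric chromosomes (median 3.5 kb) and 1.7 to 65.6 kb on the others (median 16.2 kb). All 4 clusters of at least 10 peaks were on other chromosomes, at 2 sites of chromosome 4 and on chromosomes 17 and 20, and held 45 peaks of A (44.6%) and 47 of B (56.0%).

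The acrocentric places were small and simple. On chromosome 13, a peak at chr13:18211501-18212800 had the same edges in both lists and scored 43.40 in A and 47.79 in B. It lies in FAM230C, a long non-coding RNA gene (chr13:18195297-18232016) of a family spread by segmental duplication. A second shared peak at chr13:18214701 scored 4.79 and 4.84, and B alone had a peak between them scoring 6.15. The nearest protein-coding gene was TUBA3C, which encodes an alpha-tubulin, 958.8 kb away. The place starts 0.0348 Mb after the stretch without annotated genes that covers the short arm.

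On chromosome 21, beside the MIR3648-2 place, 3 further places were in both lists. At chr21:10269701-10274400, 56.2 kb from the pseudogene EIF3FP1 and 247.2 kb from TPTE, the 3 peaks of A scored 8.42, 8.31 and 11.11, and the 4 peaks of B scored 6.75, 9.34, 8.89 and 10.25. Of these, 2 pairs had the same edges in both lists. The 3 shared peaks started 1600 and 1700 bp apart in A, and 1700 and 1700 bp apart in B, so they stood at near-equal steps. At chr21:10325401-10326100, 4.54 kb from EIF3FP1, a peak of 600 bp scored 17.03 in A and a peak of 700 bp scored 31.17 in B. Before TPTE, which encodes a testis-expressed phosphatase-like membrane protein, a peak starting at 10692201 scored 37.12 in A and one starting at 10692501 scored 28.59 in B, and B had a further peak 12000 bp on that scored 4.39. Replicate A alone had a pair of weak peaks at chr21:9246701-9248400, scoring 4.80 and 4.84.

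**Figure D2:**
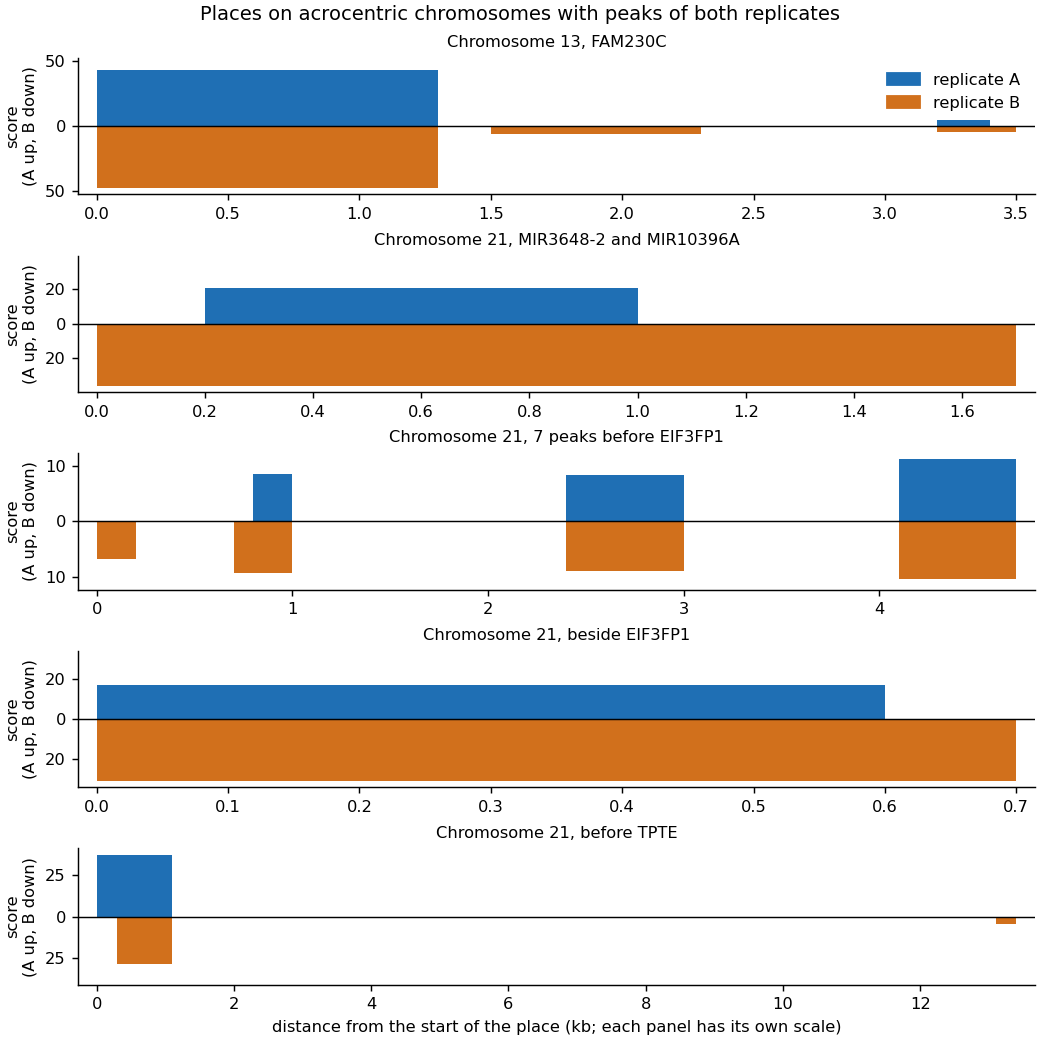
Peaks of replicate A (blue, upward) and B (orange, downward) at the 5 acrocentric places with peaks of both lists, with the authors' score on the vertical axis and the distance in kb from the start of the place on the horizontal axis, scaled per panel. The highest FAM230C peak has the same edges in both lists, and at the MIR3648-2 place the peak of B is wider (1700 against 800 bp) and has the higher score.

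The large clusters of the other chromosomes lay 0 to 2.47 Mb from the longest stretch without annotated genes. The longest cluster was at chr4:49091101-49156700. It lay 4.57 kb from the lncRNA gene LOC101927209 and 29.0 kb from the nearest protein-coding gene, CWH43, a gene of lipid remodelling of GPI-anchored proteins. It held 15 peaks of A and 22 of B, which covered 82.9% and 73.2% of its 65.6 kb. Both lists covered 46.3 kb of the 56.1 kb covered by either. All 15 peaks of A and 20 of the 22 of B were shared, and 9.5 kb was covered by neither list. Scores of A ran from 7.02 to 82.81 (median 29.17) and those of B from 4.33 to 63.70 (median 14.55). The highest peak of each list was the same block, at 49148501 to 49151500 in A and 49148601 to 49151300 in B. The widest peak of all 185, 22600 bp in A at the start of the cluster, faced 4 peaks in B.

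The second cluster of chromosome 4, at chr4:49632201-49658100, was more open. Its 14 peaks of A covered 48.3% and its 12 peaks of B 39.0% of 25.9 kb, and 12 of 14 and 12 of 12 were shared. Its top scores were 24.25 in A and 14.91 in B, below those of the first cluster, and the medians were 6.95 and 7.59. The nearest annotated gene was the pseudogene SNX18P25, 42.5 kb away, and CWH43 was 570.1 kb away.

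**Figure D3:**
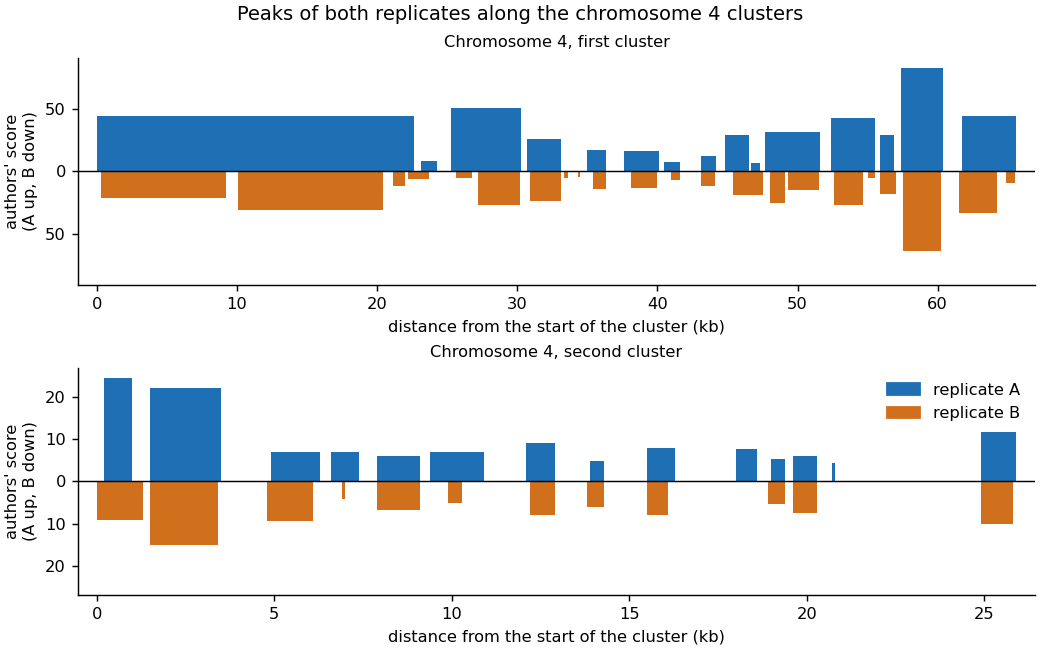
Peaks along both chromosome 4 clusters, with the authors' score of A drawn upward and of B downward, against the distance in kb from the start of each cluster. Both replicates cover 46.3 kb of the 56.1 kb covered by either in the first cluster, and the scores of A reach 82.81 in the first cluster and 24.25 in the second.

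The highest scores of the set were on chromosome 5, in the gene-poor stretch nearest to EMB, which encodes the adhesion protein embigin. At chr5:49656201-49667500, 728.7 kb from EMB, 2 peaks of 5900 and 1600 bp had identical edges in both lists. The first scored 115.96 in A and 74.15 in B, and the second 70.23 and 50.01. At chr5:49599501-49603200 the single peak of A (104.26) faced 2 peaks of B (6.85 and 76.44). The peaks of A scoring 115.96 and 104.26 ranked 1 and 3 in its list, and the chromosome 4 peak scoring 82.81 ranked 10. No other peak of A studied here, and none of B, was among the 10 highest of its list.

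Clusters on chromosomes 17, 20 and 18 had lower top scores than those on chromosome 5. At chr17:21969401-21991700, the nearest gene was the pseudogene LOC100287309, 52.6 kb away, and the nearest protein-coding gene the potassium channel gene KCNJ18, 264.8 kb away. There 11 peaks of A (4.04 to 12.42) and 6 of B (4.34 to 9.83) covered 26.9% and 17.5% of 22.3 kb, and 5 of each were shared. At chr17:26603401-26620500 the peaks of A scored 15.68 and 13.41 and those of B 10.37 and 8.32, and the peak at chr17:26880601-26885900 scored 35.63 and 27.19. WSB1, which encodes a substrate receptor of a ubiquitin ligase, was the nearest protein-coding gene, 673.6 and 408.2 kb away, and the pseudogene LOC100422478 the nearest of any type, 361.2 and 95.8 kb away. At chr20:31051601-31076200, the nearest gene was the pseudogene CDC27P5, 132.0 kb away, and the nearest protein-coding gene the beta-defensin gene DEFB115, 181.5 kb away. There 5 peaks of A and 7 of B covered 93.9% and 89.8% of 24.6 kb, the densest of the large clusters, with top scores of 22.82 and 13.60. A looser group at chr20:31157101-31187500 scored up to 12.22 and 11.04. On chromosome 18 a peak over an edge of the pseudogene ROCK1P1 (chr18:109065-122340), near the end of the short arm, scored 43.94 in A and 33.76 in B. Its midpoint was 35.6 kb (A) and 35.8 kb (B) from the nearest protein-coding gene, TUBB8B. B alone had weak peaks at chr18:97001-97300, scoring 4.46, and at chr18:112101-112300, scoring 4.22, which overlaps MIR8078.

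Neighbouring peaks of a place were close together. The gap between the end of a peak and the start of the next of the same list had a median of 1250 bp in A (range 1000 to 1900, 4 gaps) and 1000 bp in B (200 to 12000, 6 gaps) on acrocentric chromosomes. On the others it was 900 bp in A (200 to 26600, 48 gaps) and 850 bp in B (200 to 27000, 50 gaps). With 4 and 6 acrocentric gaps, the difference in spacing was not tested. No gap in either whole list was under 200 bp, so peaks nearer than that may have been joined by the peak caller, which is not given in the sources used here. Within the chromosome 20 cluster gaps were at most 500 bp in both replicates, and in the chromosome 17 cluster they reached 4200 bp in A and 7300 bp in B.

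All peaks over 1700 bp wide were on the other chromosomes. Acrocentric peaks had a median width of 600 bp in both replicates and reached 1300 bp in A and 1700 bp in B, while the others had medians of 550 bp in A and 950 bp in B and reached 22600 and 10300 bp. Peaks of a single 100 bp window, the smallest in the lists, made up 22 of 90 peaks (24.4%) in A and 9 of 72 (12.5%) in B on the other chromosomes, and 1 of 11 and 0 of 12 on acrocentric ones. The authors' score, whose scale is not stated and whose lowest value is 4, had a median of 8.42 in A and 9.12 in B on acrocentric chromosomes and 5.99 and 8.20 on the others. Among peaks wider than a single window the order turned in B, with medians of 9.12 on acrocentric chromosomes and 9.43 on the others, and in A they were 9.77 and 8.70. The highest acrocentric scores were 43.40 and 47.79, against 115.96 and 76.44 on the others. Over the whole lists the median width was 600 bp in both replicates. Single-window peaks there made up 15.3% in A and 8.10% in B, and median scores were 6.73 and 6.94.

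At a like width, the median score of acrocentric peaks was the higher in both replicates. Among peaks of 500 to under 2000 bp, a band chosen after the values were seen, the 6 acrocentric peaks of A had a median score of 18.76 (8.31 to 43.40) and the 29 others 9.04 (4.84 to 70.23). In B the 7 acrocentric peaks had a median of 28.59 (6.15 to 47.79) and the 35 others 8.32 (4.25 to 50.01). The ranges overlapped in both replicates, the difference was not tested, and all but 1 of the acrocentric peaks in this band of A and 2 of B were on chromosome 21.

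**Figure D4:**
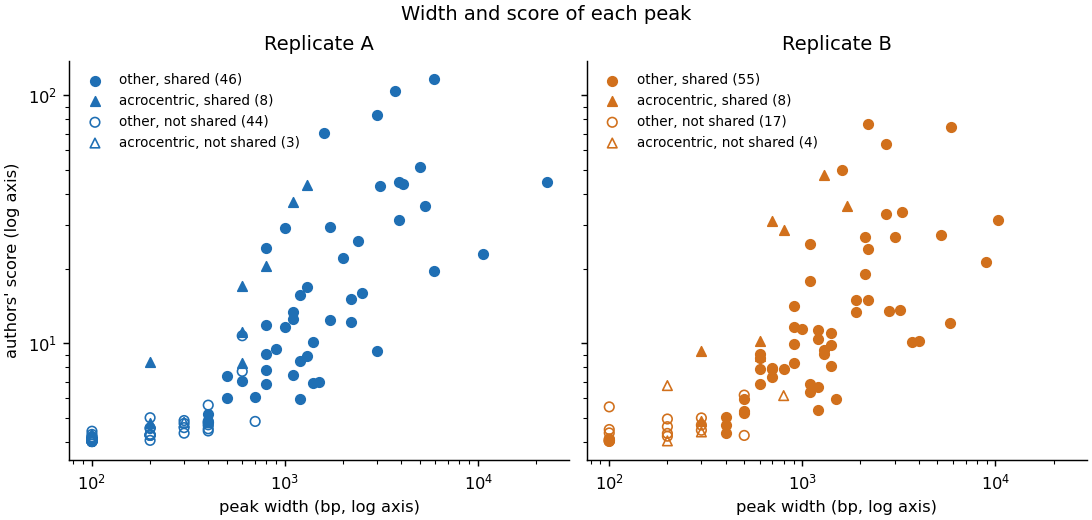
Width in bp (horizontal, log axis) against the authors' score (vertical, log axis) of each peak, with replicate A at the left and B at the right; filled symbols overlap a peak of the other list, open symbols do not, and triangles are acrocentric. Open symbols gather at the lower left, and the acrocentric triangles run from 4.29 to 43.40 in A and from 4.04 to 47.79 in B.

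Within this set, agreement between the replicates followed the score. At least 1 bp was shared by 54 of 101 peaks of A (53.5%, interval 43.3 to 63.5) and 63 of 84 peaks of B (75%, 64.4 to 83.8), where the whole lists gave 66.3% in A and 65.6% in B. On acrocentric chromosomes 8 of 11 peaks of A (72.7%, 39.0 to 94.0) and 8 of 12 of B (66.7%, 34.9 to 90.1) were shared, and on the others 46 of 90 (51.1%, 40.3 to 61.8) and 55 of 72 (76.4%, 64.9 to 85.6). The acrocentric share was the higher in A and the lower in B, and the difference was not tested. Without chromosome 4, 31.7% of 60 peaks of A and 62.2% of 37 of B on the other chromosomes were shared. Of peaks scoring 4 to under 5, 2 of 45 in A and 4 of 20 in B were shared. Of those scoring 20 or more, 20 of 20 and 17 of 17 were. In A, 2 peaks scoring at least 7 were unmatched, at chr20:31241401-31242000 (10.72) and chr4:49650201-49650800 (7.70), and in B none was. By width, 0 of 23 single-window peaks of A and 1 of 9 of B were shared, against 23 of 23 and 28 of 28 at 1000 to under 3000 bp and 13 of 13 and 10 of 10 at 3000 bp or more. A wide peak meets the overlap rule more easily. Shares by score or width over the whole lists are not given here, so whether this pattern is particular to these peaks is not known.

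Edges agreed closely where 1 peak of each list formed a shared locus. There were 40 such loci. In 18 the starts were the same, in 17 the ends, and in 8 both, and 59 of the 80 edges differed by at most 100 bp, which is 1 window. On acrocentric chromosomes 13 of 16 edges did, and on the others 46 of 64. The largest difference was 700 bp.

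Both lists ranked the 50 shared loci in much the same order, with a Spearman rank correlation of 0.931, and a Pearson's r of 0.940 for log2 scores. The rank correlation was 0.949 over the 42 loci on other chromosomes and 0.929 over the 8 acrocentric ones. These are descriptions, since loci of a cluster share library and neighbourhood. A had the higher score at 36 of the 42 other loci, and B at 6 of the 8 acrocentric loci. In the excluded rDNA stretch B was higher at 17 of 19 shared loci, and elsewhere in the lists at 71 of 158. B was higher at MIR3648-2 (20.48 and 35.77) and beside EIF3FP1 (17.03 and 31.17), and A before TPTE (37.12 and 28.59). At the remaining acrocentric loci the scores were closer. B was slightly higher at 43.40 and 47.79, 8.42 and 9.34, 8.31 and 8.89, and 4.79 and 4.84, and A at 11.11 and 10.25. The score has no stated scale, so a count of loci higher in A or B depends on how the lists are scaled to each other, and the difference between the classes was not tested.

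**Figure D5:**
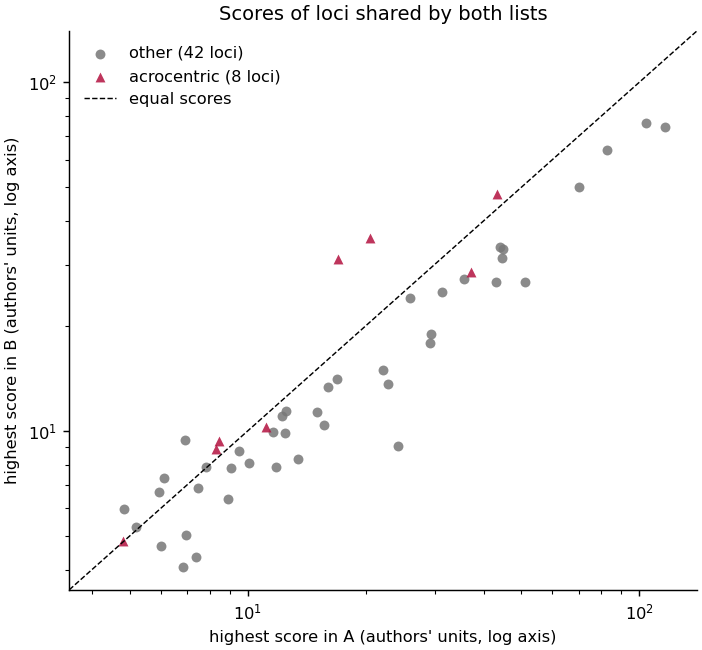
Highest score in A (horizontal, log axis) against highest score in B (vertical, log axis) for the 50 loci shared by both lists; triangles are the 8 acrocentric loci, circles the 42 others, and the dashed line marks equal scores. Most circles lie below the line and 6 of 8 triangles above it.

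Peaks away from places with both replicates were weak and narrow. There were 37 in A, scoring 4.01 to 10.72 (median 4.20), and 11 in B, scoring 4.02 to 6.18 (median 4.11), and the median width was 100 bp in each. Their midpoint lay in an annotated gene for 15 of 37 in A (40.5%, 24.8 to 57.9) and 5 of 11 in B (45.5%, 16.7 to 76.6). For peaks of places with both replicates these counts were 4 of 64 (6.25%, 1.73 to 15.2) and 6 of 73 (8.22%, 3.08 to 17.04). Annotated genes cover 54.9% of the length of these chromosomes, assembly gaps included. Protein-coding genes, which cover 40.9%, held 10 of the 15 in A and 2 of the 5 in B.

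The genes named next each hold a peak of 1 list only, which follows from leaving out places with both. On chromosome 12, A had single-window peaks in the calcium channel genes CACNA1C (4.11) and CACNA2D4 (4.05), in NELL2, which encodes a secreted neural protein (4.02), and in the protease gene TMPRSS12 (4.02). On chromosome 17 it had peaks in BCAS3 (5.01) and in ABR (4.84), and elsewhere in C1QTNF3 (4.78), TMEM242 (4.56), the deubiquitinase gene OTUD7A on acrocentric chromosome 15 (4.29) and CEACAM5, the carcinoembryonic antigen gene (4.25). The lncRNA gene CYKILR on chromosome 19 held 3 weak peaks of A (4.06 to 4.28), the nearest of them 31.6 kb from the zinc finger gene ZNF565. The lncRNA genes LOC105370076 on chromosome 12 (4.53) and LOC105376634 on chromosome 11 (4.11) each held a peak of A. B had peaks in the prohormone convertase gene PCSK2 (4.95) and the transcription factor gene NFIL3 (4.11), in the lncRNA genes FAM27E4 (4.10) and LINC02955 (4.04), and, on acrocentric chromosome 14, in LOC105370449 (4.04). A peak of B scoring 5.54 covered the annotated edge of RABEP1, which encodes an endosomal effector of RAB5.

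Over all peaks, 80 of 101 in A (79.2%, 70.0 to 86.6) and 71 of 84 in B (84.5%, 74.99 to 91.5) lay more than 1 kb outside genes, where 43.1% of the chromosome length lies. On acrocentric chromosomes 7 of 11 and 7 of 12 did, where 50.2% of the length lies. Around the longest stretch without annotated genes on each chromosome, 62.4% of peaks in A (52.2 to 71.8) and 78.6% in B (68.3 to 86.8) were at most 5 Mb away, where 13.1% of the chromosome length lies. With stretches free of protein-coding genes only, 33.7% and 38.1% of peaks were that near, and the share of length near those stretches is not given here. On acrocentric chromosomes 5 of 11 (45.5%) and 4 of 12 (33.3%) peaks were at most 5 Mb from the longest stretch without annotated genes, where 21.4% of their length lies. On the others 64.4% and 86.1% of peaks were, where 11.1% of the length lies. All length shares include assembly gaps, so those of the classes are not alike as a background. On acrocentric chromosomes the stretch starts at position 1, in short arms of which much sequence is absent from hg38. The 3 places from chr21:10269701 on start 5.26, 5.31 and 5.68 Mb from that stretch, which on chromosome 21 begins the short arm.

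Genes of families duplicated beside centromeres and on acrocentric short arms, a list of 212 genes, had 5 members within 50 kb of a peak of A (2.36%) and 7 of B (3.30%). Of all 37431 genes on these chromosomes, 0.342% and 0.182% were that near. The families were picked for their location, with earlier results known, so all genes are not a like background. Some members also share a peak. FAM230C, the pseudogene GGT4P, ROCK1P1, MIR3648-2 and the orphon immunoglobulin segment IGHV1OR21-1 were near peaks of both replicates, and the pseudogenes DUX4L50 and FRG1JP on chromosome 9 near a weak peak of B. FAM230C, ROCK1P1 and MIR3648-2 overlapped a peak in both, and the peaks at MIR3648-2 are wider than the gene. Of 619 genes of at least 300 kb, 5 (0.808%) overlapped a peak of A and 2 (0.323%) a peak of B, where all genes gave 0.0508% and 0.0347%, and no allowance was made for their length. These were CACNA1C, NELL2, OTUD7A, BCAS3 and the pseudogene LOC124901865 in A, and LOC124901865 and LINC02955 in B.

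At the limits of the selection, the last peaks kept on chromosome 4 were at 189235001 (A, 4.85) and 189233701 (B, 4.25), and the first left out were at 190022101 (A, 4.88) and 190177401 (B, 26.97). The last rDNA peaks left out started at 8451201 (A, 4.87) and 8457101 (B, 5.43), and the next peaks kept were those at MIR3648-2. No peak of either list lay on chromosome 21 before the rDNA stretch.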

How the data were processed

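Peak lists of 2 Chem-seq capture libraries of A549 cells were used. bcl2fastq 2.17, Trimmomatic 0.36, Bowtie2 2.2.5 and build hg38 are named, with no role or order, per the submitters' processing notes. Which peak caller was run, and whether it used the input, is not given in the sources used here. Each peak carries a score deposited by the authors, of unstated scale. The deposited positions, other values per peak, count from 0 with both ends included and lie on a 100 bp grid in all 801 rows; they are printed here counted from 1.

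Clusters, gaps, overlaps of at least 1 bp, gene classes by midpoint and exact binomial intervals were computed with Python 3.11.15, pandas 2.3.3 and scipy 1.17.1. Clusters, gaps, overlaps and shared loci were checked on simulated data. Gene classes were not, and of the intervals only a lower limit was. Genes came from a RefSeq table of GRCh38.p14, the assembly of hg38; 440 rows in scaffold or alternate coordinates were left out. The table gives no strand or exons. Chromosome lengths came from GenomeInfoDb 1.38.1. Sequence features were not run, since no genome was used here. No test was made over peaks. Named genes are the nearest of any type and the nearest protein-coding gene to clusters of at least 3 peaks, those holding other peaks (up to 15 per replicate, by score), and members of 19 fixed families and of the long genes; the peaks at MIR3648-2, beside EIF3FP1 and at RABEP1, the 18S pseudogenes, the width band and the score order were chosen after values were seen. Members and lists were chosen with earlier results of these data known.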

Additional observations from a re-analysis of the deposited data

How the results depend on the processing

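Of 84 alternative values over 27 results, 48 stayed within the counting interval, the spread between replicates or 1.5 times the count, and 36 moved further. By score, in the top 50% of each list the shared part was 100% of acrocentric peaks in A and B, and 95.3% (A) and 100% (B) of the others; with a score of at least 5, added after the data were seen, it was 100% (A) and 77.8% (B) of acrocentric peaks and 91.8% (A) and 94.5% (B) of the others. Among peaks wider than 1 window it was 67.6% (A) and 85.7% (B) on other chromosomes, without chromosome 4 it was 31.7% and 62.2%, and with 50% overlap 55.6% in B. Median widths in the top 50% were 700 bp (B, acrocentric) and 1500 bp (A and B, other). Median scores were 6.79 (A, acrocentric) with rDNA kept, and among wider peaks 9.77 (A, acrocentric), 8.70 (A, other), 9.12 (B, acrocentric) and 9.43 (B, other), so that the order of the classes turned in B. Joining over 500 kb left 3 acrocentric clusters with both replicates and gave median gaps of 1900 bp (A) and 1250 bp (B) on acrocentric chromosomes and 1250 and 900 bp on the others; over 10 kb the latter were 600 and 800 bp. Clusters of at least 3 peaks numbered 13, and 6 to 8 when either replicate was left out (1 to 2 of 3 acrocentric, 5 to 6 of 10 other). Outside protein-coding genes lay 89.1% (A) and 95.2% (B). Within 2 Mb of the gene-free stretch lay 48.5% and 64.3%, and for stretches free of protein-coding genes 33.7% and 38.1% within 5 Mb. The matching shares of chromosome length are not given here for these alternatives. The rank correlation of scores over shared loci stayed between 0.917 and 0.951. Agreement and this correlation need both lists, so no value without a replicate exists. Shared parts of the whole lists under these settings are not given here. No paired analysis was possible because the inputs were not analysed here. Depth is unknown, and 11 and 12 acrocentric peaks limit any comparison of the classes.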
